A study of Homo sapiens with 3 samples.

Results

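The HOX cluster genes are the 39 genes of the HOXA, HOXB, HOXC and HOXD clusters. They were chosen by name, as the gene rows called HOXA, HOXB, HOXC or HOXD with a number, and were 39 of the 39320 gene rows compared. HOXA contributed 11 genes, HOXB 10, HOXC 9 and HOXD 9. The study, on METTL3 splice variants, sequenced polyA RNA in 3 libraries whose labels read wild-type HepG2, a cell line long established from a human liver cancer. The labels give no treatment and no second genotype, so the 3 libraries form 1 group. They also do not say whether the replicates came from separate cultures, so the spread between them may be technical.

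HOX genes encode transcription factors that bind DNA through the homeodomain and give cells of the embryo their position along the body axis. In each cluster the genes are numbered by paralog group, and genes of the same group in different clusters descend from a common ancestor. Low-numbered genes act toward the head and high-numbered genes toward the tail, and this order is kept on the chromosome. Many adult tissues keep a HOX code, which is often altered in tumors. Paralog groups 1 to 3 are called anterior here, groups 4 to 8 central and groups 9 to 13 posterior.

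Values are TPM, which counts transcripts relative to all transcripts of a library and which the authors' tables scale for gene length and to the same total in each library. The tables hold no read counts. The depth is therefore unknown, no counting error can be given, and a gene is only said to be listed at 0. Relative depth, taken as the maximum of coverage divided by FPKM, was 13.3, 12.8 and 11.5 in replicates 1, 2 and 3. Among 20 genes of hepatocyte secreted proteins, 18 stayed below 1 TPM throughout and 12, ALB and APOA1 among them, were at 0, while RBP4 and VTN exceeded 10 TPM in every library. AFP, also on this list, had 0, 0.0239 and 0.0248 TPM in replicates 1, 2 and 3. With these low values in view, HepG2 is used below only as the label of the libraries. Whether the cells match that label was not tested. At least 1 TPM in every library was reached by 0 of 6 blood markers, 1 of 6 fibroblast markers (COL1A1) and 1 of 5 endothelial markers (VWF). Beside these marker counts, 59.5% of protein-coding gene rows reached 1 TPM and 20.0% were listed at 0 in every library. In bulk RNA, fewer cells that express a gene and less RNA per cell cannot be told apart.

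All 39 HOX genes carry a homeobox, the part of the gene that encodes the homeodomain. The stretch that encodes its DNA-reading helix is shown for HOXA10 and HOXD10, an abundant and a scarce gene of paralog group 10. Each sequence is the 36 coding bases read from the GENCODE v44 canonical transcript on GRCh38, 5′ to 3′, and the capitals mark the 18 bases for the 6 residues WFQNRR, homeodomain positions 48 to 53, which all 39 proteins share.
HOXA10, chr7:27171968-27172003, minus strand: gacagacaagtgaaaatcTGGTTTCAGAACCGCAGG
HOXD10, chr2:176119127-176119162, plus strand: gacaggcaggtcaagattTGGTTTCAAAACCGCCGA
The same 6 residues were spelled in 30 different ways across the 39 genes, and the commonest spelling occurred in 4 of them. Over the 180 bases of the homeobox, the median identity was 81.7% for the 42 pairs of the same paralog group. It was 61.4% for the 172 other pairs of the same cluster. The median of pairs that share neither is not reported here. The highest identity was 91.1%, between HOXA6 and HOXA7. Among the 736 pairs whose annotated exons do not overlap, the longest identical run in the transcripts was 62 bases, between HOXB3 and HOXD3, which is shorter than the 150-base reads.

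HOX transcripts were present from all 4 clusters of the libraries labelled HepG2. At least 1 TPM in every library was reached by 29 of the 39 HOX genes, or 74.4%, against 33.8% of all 39320 gene rows and 59.5% of the 18743 protein-coding gene rows. At the higher limit of 10 TPM in every library, the order was the opposite, with 10 HOX genes, or 25.6%, against 40.4% of protein-coding gene rows. The median of the 30 HOX genes averaging 1 TPM or more was 6.47 TPM, against 19.5 TPM for the 11315 protein-coding genes with such a mean. HOX genes thus reached 1 TPM more often than protein-coding genes in general, and 10 TPM less often.

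Only 3 HOX genes, HOXB1, HOXD1 and HOXD12, were listed at 0 in every library. This is 7.69% of the HOX genes, against 20.0% of protein-coding gene rows. HOXB2 and HOXC12 were above 0 only in replicate 2, with 0.172 and 0.103 TPM, so that 5 genes would be listed at 0 without that library. HOXB4 was listed at 0 in replicate 1 and had 0.310 and 0.245 TPM in replicates 2 and 3.

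The summed level of all HOX genes was 377, 370 and 361 TPM in replicates 1, 2 and 3, or 369 ± 7.99 TPM (SD, n = 3), which is 0.0369% of all TPM. HOXC had the highest sum, 154 ± 1.95 TPM, followed by HOXA with 113 ± 3.13 TPM, HOXB with 64.8 ± 1.45 TPM and HOXD with 37.5 ± 1.52 TPM. These sums were 41.7%, 30.6%, 17.6% and 10.2% of the HOX total. The order of the clusters was the same in all 3 libraries, and the sums of different clusters did not overlap.

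Within each library, clusters were compared by the log2 ratio of their sums with a pseudocount of 1 TPM. HOXC exceeded HOXD by 2.01 ± 0.04 on this scale (SD, n = 3), a 4.02-fold ratio, and HOXA exceeded HOXD by 1.56 ± 0.02. HOXA exceeded HOXB by 0.79 ± 0.01 and HOXB exceeded HOXD by 0.77 ± 0.03. The HOXA to HOXC ratio was -0.44 ± 0.02 and the HOXB to HOXC ratio -1.24 ± 0.01. The direction of all 6 ratios held in 3 of 3 libraries. By an exact sign-flip permutation test (two-sided), p was 0.25 for every ratio, before and after Benjamini-Hochberg adjustment for 6 pairs, and 3 libraries allow no smaller p.

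Posterior genes made up most of the HOX RNA. Their sum was 251 ± 4.97 TPM, or 68.0% of the HOX total, against 105 ± 2.26 TPM (28.5%) for central and 13.4, 13.6 and 11.9 TPM in replicates 1, 2 and 3 (3.51%) for anterior genes. By coverage in place of TPM, the anterior share was 2.17%. The clusters differed in this respect. The posterior share was 85.3% in HOXC, which has no anterior genes, 68.7% in HOXA and 66.0% in HOXD, but 26.9% in HOXB, where central genes held 69.9%. These sums cover unequal numbers of genes, 8 anterior, 15 central and 16 posterior. HOXB has 5 central and 2 posterior genes, and its median gene had 4.31 TPM in the central and 8.71 TPM in the posterior groups. In HOXD, the median was 5.66 TPM for 2 central and 0.795 TPM for 5 posterior genes. HOXD9 alone had 18.3 of the 24.8 posterior TPM of HOXD.

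**Figure D1:**
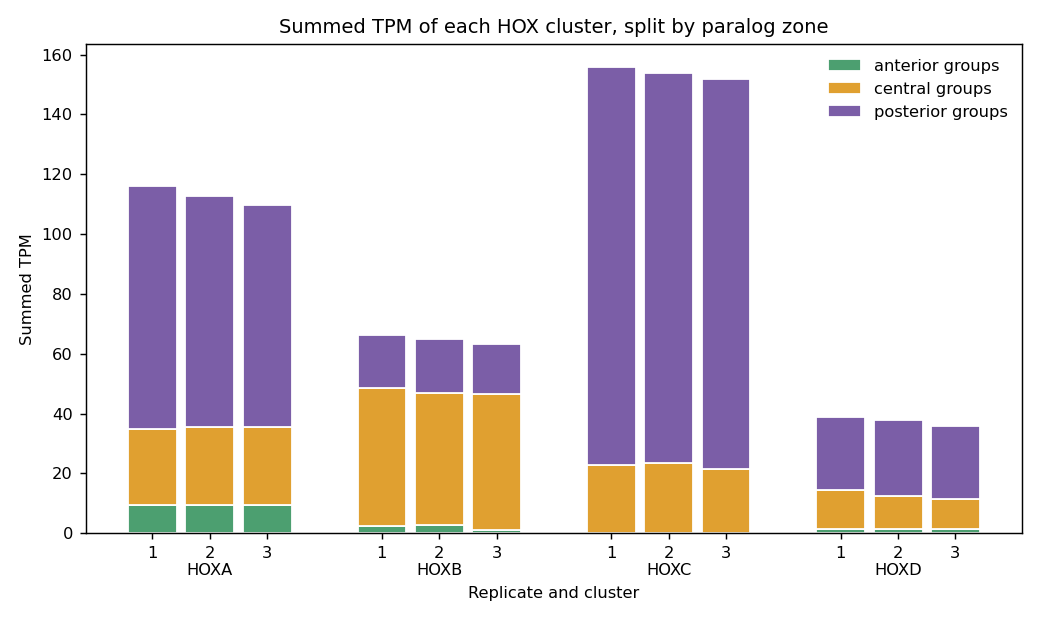
Summed TPM (y axis) of the genes of each HOX cluster in replicates 1, 2 and 3 (x axis), with the bars divided into anterior, central and posterior paralog groups. HOXC is the highest in each replicate and mostly posterior, and HOXB is mostly central.

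By paralog group, the sum was highest in group 10 with 103 ± 2.06 TPM, followed by group 11 with 59.1 ± 2.16 TPM and group 9 with 47.0 ± 1.14 TPM. Group 13 had 42.1 ± 1.87 TPM and group 7 had 40.7 ± 0.915 TPM. Groups 2 and 12 were the lowest, with no member at 1 TPM in every library. A few genes carried most of the RNA. HOXC10 alone was 17.8% of the HOX total, the 5 most abundant genes 50.8% and the 10 most abundant 74.0%.

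Along a cluster, the level did not rise evenly with the gene number. Spearman's rho between the gene number and the mean TPM was 0.77 in HOXB (10 genes), 0.53 in HOXA (11 genes), 0.38 in HOXC (9 genes) and -0.11 in HOXD (9 genes). These values describe genes that share libraries and, where they overlap, reads. Peaks lay at HOXA10, HOXB7, HOXC10 and HOXD9, with scarce genes directly beside abundant ones.

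**Figure D2:**
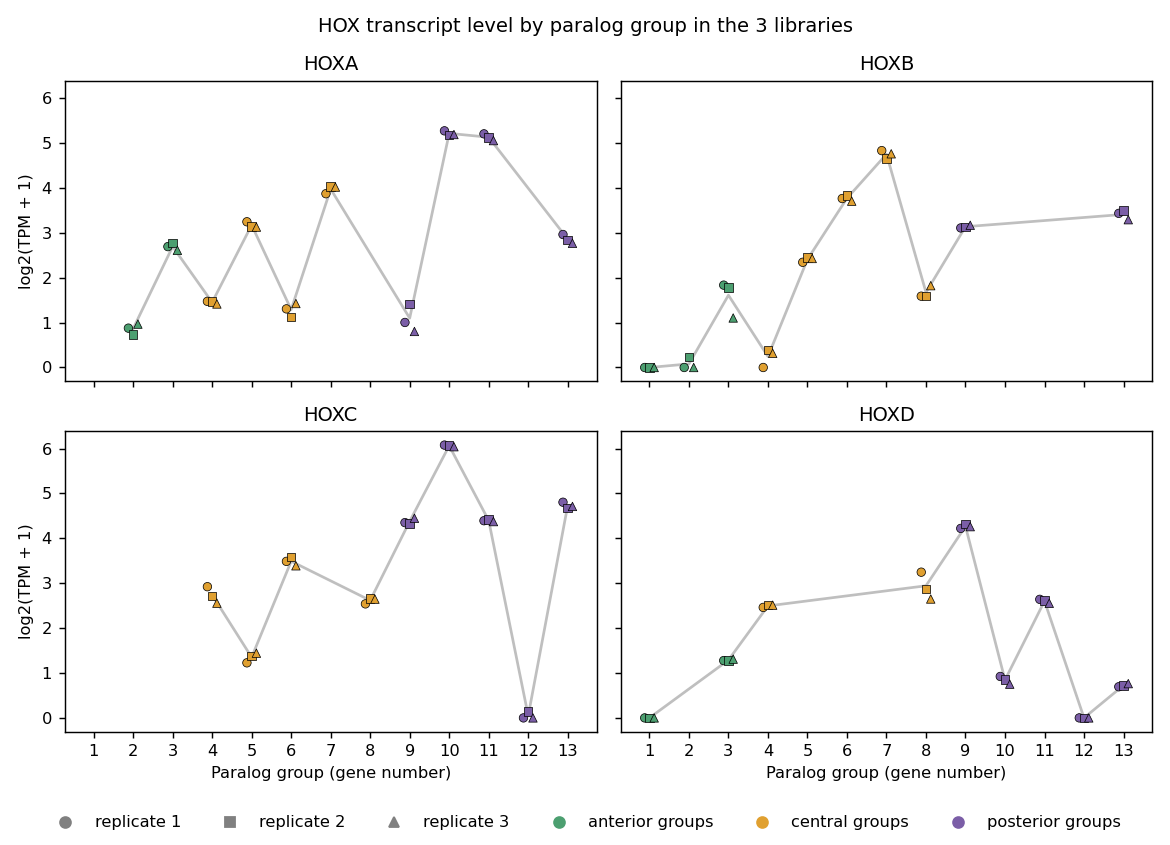
Level of 38 HOX genes as log2(TPM + 1) (y axis) by paralog group (x axis) in the 4 clusters, with a symbol for each replicate, a color for each zone and a gray line through the means. HOXA and HOXC peak at group 10, HOXB at group 7 and HOXD at group 9, and HOXC12 lies near 0 between the abundant HOXC11 and HOXC13.

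The HOXC cluster lies on the plus strand of chromosome 12, from 53938831 to 54056030 in GRCh38. HOXC10, a posterior gene active in the hindlimb region and the lumbar spinal cord, was the most abundant HOX gene. It had 66.5, 66.1 and 64.8 TPM in replicates 1, 2 and 3 and exceeded 83.3% of the genes averaging 1 TPM or more. HOXC13, which acts in hair and nail formation, had 26.9, 24.6 and 25.2 TPM. HOXC11 had 20.0, 20.5 and 19.7 TPM, and HOXC9, which patterns the thoracic spinal cord, had 19.4, 19.2 and 20.8 TPM. These 4 posterior genes were each more abundant than every central HOXC gene in every library.

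The remaining posterior gene, HOXC12, was listed at 0 in replicates 1 and 3, although its neighbors HOXC11 and HOXC13 each exceeded 19 TPM in every library. Among the central genes, HOXC6 had 10.2, 11.0 and 9.47 TPM and HOXC8 had 4.81, 5.33 and 5.26 TPM. HOXC4 had 6.58, 5.57 and 4.88 TPM, and HOXC5 had 1.34, 1.59 and 1.72 TPM. HOXC4 was highest in replicate 1 and HOXC5 lowest in it. The deposited rows of HOXC4, HOXC5 and HOXC6 share their start at 54016852 and lie on the same strand, so their reads could have been divided between them in the counting.

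The HOXA cluster is on chromosome 7, minus strand. Its most abundant genes were HOXA10, which acts in uterine and urogenital development and in blood progenitors, and HOXA11, which acts in limb and uterine development. HOXA10 had 37.6, 35.3 and 35.5 TPM, and HOXA11 had 35.9, 33.9 and 32.2 TPM. HOXA10 was the higher of the pair in 3 of 3 libraries, but their ranges overlapped. HOXA13, a gene of the distal limb and hindgut, had 6.79, 6.15 and 5.80 TPM.

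HOXA9, best known as an oncogene in leukemia, had 1.00, 1.68 and 0.745 TPM. By its own row it was the scarcest posterior HOXA gene. Of the HOX genes averaging 1 TPM or more, it had the highest coefficient of variation. The row HOXA10-HOXA9, a read-through transcript, covers both genes and had 5.45, 4.20 and 6.78 TPM, lowest in the replicate where HOXA9 was highest. The sum of HOXA9 and this row was 6.45, 5.88 and 7.53 TPM. The HOXA9 row lies entirely within the read-through row on the same strand, so reads could have been divided between them. The range of this sum overlapped that of HOXA13, which had 6.79, 6.15 and 5.80 TPM. HOXA10 exceeded the HOXA9 row alone by 31.7-fold. By this counting the read-through row held more of the RNA of this region than the HOXA9 row did.

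Central and anterior HOXA genes alternated in level. HOXA7 had 13.6, 15.4 and 15.2 TPM and HOXA5, a regulator of lung development, had 8.48, 7.84 and 7.74 TPM. HOXA6, which lies between them, had 1.47, 1.17 and 1.69 TPM, and HOXA4 had 1.78, 1.76 and 1.67 TPM. HOXA5 was thus 5.56-fold and HOXA7 10.2-fold above HOXA6, without overlap between the libraries. HOXA3, a gene of pharyngeal arch development, had 5.46, 5.84 and 5.11 TPM. HOXA2, which specifies the second pharyngeal arch, stayed below 1 TPM with 0.836, 0.669 and 0.955 TPM. The row of HOXA3 spans those of HOXA4, HOXA5 and HOXA6 on the same strand. HOXA3 ranked 18th among the HOX genes by TPM and 23rd by coverage.

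The HOXB cluster is on chromosome 17, minus strand, from 48528526 to 48728749. HOXB7, which has been linked to tumor growth, was its most abundant gene with 27.5, 24.3 and 26.1 TPM. HOXB6 followed with 12.6 and 13.3 TPM in replicates 1 and 2, its lowest value in replicate 3, and a mean of 12.6 ± 0.613 TPM (SD, n = 3). HOXB5 had 4.08, 4.47 and 4.38 TPM. From HOXB4 to HOXB7 the level rose at each step in every library. HOXB8 broke this series with 2.01, 2.03 and 2.54 TPM, 11.8-fold below HOXB7.

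HOXB9 had 7.62, 7.76 and 7.99 TPM. HOXB13, a marker of prostate epithelium, had 9.80, 10.3 and 8.79 TPM, although its row lies 98404 bp from that of HOXB9 and the row of the nearby PRAC2 was listed at 0 in every library. At the other end of the cluster, HOXB3 was the only anterior HOXB gene above 1 TPM. It had 2.57 and 2.45 TPM in replicates 1 and 2 and 1.15 TPM in replicate 3. Its row spans HOXB4 on the same strand, and it ranked 25th by TPM and 31st by coverage.

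The HOXD cluster lies on the plus strand of chromosome 2, from 176087487 to 176190907. HOXD9 was its most abundant gene with 17.6, 19.0 and 18.2 TPM. HOXD10, beside it, stayed below 1 TPM with 0.896, 0.806 and 0.684 TPM. The next posterior gene, HOXD11, had 5.24, 5.11 and 4.87 TPM. HOXD13, which shapes the digits, had 0.618, 0.644 and 0.697 TPM. HOXD11 thus lay between HOXD10, below 1 TPM, and HOXD12, listed at 0.

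HOXD8 had 8.49, 6.31 and 5.27 TPM and was highest in replicate 1. HOXD4 had 4.50, 4.69 and 4.70 TPM, and HOXD3 had 1.42, 1.43 and 1.48 TPM. HOXD3 ranked 28th by TPM and 32nd by coverage. Paralog group 10 was uneven across its clusters, with means of 65.8 TPM for HOXC10, 36.1 TPM for HOXA10 and 0.795 TPM for HOXD10, although the homeoboxes of HOXA10 and HOXD10 share 77.8% of bases.

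Ordered by mean TPM, the 30 HOX genes averaging 1 TPM or more ran from HOXC10 at 65.8 ± 0.877 TPM to HOXA9 at 1.14 ± 0.480 TPM (SD, n = 3). In 17 of the 29 steps from a gene to the next, the ranges of the libraries overlapped, so that those neighbors were not separated by their spread. In 3 of these 17 steps, HOXA10 over HOXA11, HOXC6 over HOXB13 and HOXA13 over HOXC4, the same gene was the higher in every library. In the other 12 steps the ranges were separate. HOXC10 stood apart from HOXA10 by 1.82-fold. The pairs HOXA10 and HOXA11, HOXB7 and HOXC13, and HOXC11 and HOXC9 overlapped, and every neighboring pair from HOXA5 to HOXD11 in the order did so too.

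**Figure D3:**
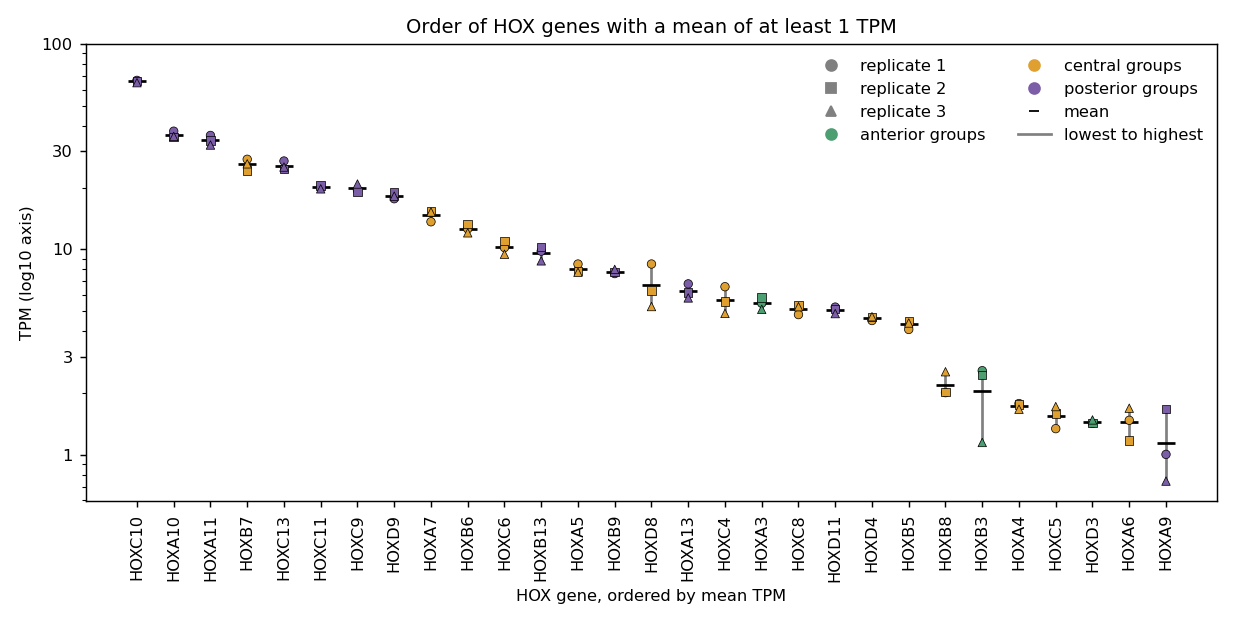
TPM on a log10 axis (y axis) of 29 of the 30 HOX genes averaging 1 TPM or more, ordered by the mean (x axis), with a symbol for each replicate, a black dash for the mean and a line from the lowest to the highest replicate. HOXC10 stands above all others, and HOXD8, HOXB3 and HOXA9 have the widest ranges.

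The spread of the HOX genes between libraries was near that of other genes. None of these 30 genes had a range of log2(TPM + 1) above 1 between libraries, against 1.26% of the 13753 gene rows with such a mean. The widest range was 0.73, for HOXB3. With a pseudocount of 0.1 TPM in place of 1, HOXB3 and HOXA9 exceeded the limit, or 2 of 30, against 2.18% of the same 13753 rows. The coefficient of variation of these 30 genes had a median of 5.21%, from 1.33% for HOXC10 to 42.1% for HOXA9. The median was 6.11% for the 9019 protein-coding genes with a mean between the lowest and the highest of these 30, not otherwise matched for level.

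The clusters also hold 33 rows of other genes, most of them noncoding, of which 17 reached 1 TPM in every library. Their sum was 183 ± 3.73 TPM (SD, n = 3). Of a list of 30 noncoding and neighboring genes of the clusters, 28 had a row and 15 reached 1 TPM in every library. Beside both counts stands the share of all 39320 gene rows that reached this limit, 33.8%. Those rows include the protein-coding ones, of which 59.5% reached it, so 33.8% is not a share among noncoding rows. HOTAIRM1, a noncoding RNA beside HOXA2 that is known from myeloid cells, had 45.6, 42.5 and 42.7 TPM. It was far more abundant than HOXA2. HOXA11-AS, antisense to HOXA11, had 20.0, 19.9 and 17.2 TPM, and HOXA10-AS had 4.50, 5.31 and 4.39 TPM. HOTTIP, a noncoding RNA beyond HOXA13 that is known to act on posterior HOXA genes, stayed between 0.214 and 0.280 TPM.

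In HOXC, HOTAIR, a noncoding RNA known for its link to Polycomb, had 6.33, 6.01 and 7.53 TPM. HOXC-AS1, HOXC-AS2 and HOXC-AS3 ranged from 5.34 to 9.61 TPM and HOXC13-AS from 4.38 to 5.02 TPM. These 5 noncoding rows, which lie beside or between HOXC9, HOXC10, HOXC11 and HOXC13, were thus above 4 TPM in every library. The row of HOTAIR overlaps HOXC11 on the opposite strand over 1831 bp.

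In HOXD, the noncoding HAGLROS was the highest row in every library, with 22.3, 23.5 and 21.2 TPM. HOXD-AS2 had 17.5, 20.0 and 18.2 TPM, a range that overlaps that of HOXD9. HAGLROS lies between HOXD3 and HOXD1, and HOXD1 was listed at 0. HAGLR, the antisense RNA of the same region, had 2.63, 2.32 and 2.15 TPM. In HOXB, HOXB-AS3 had 7.74, 7.18 and 5.98 TPM and HOXB-AS1 was listed at 0. The row of HOXB-AS3 covers those of HOXB5 and HOXB6 entirely, on the opposite strand. Its coverage divided by FPKM was on average only 0.078 of the maximum of a library, so its TPM is a less certain value. Other rows given in this report also had low ratios, among them HOXD3 with 0.297, RARA with 0.162 and RXRA with 0.190. LOC101060400, between HOXB9 and HOXB13, had 15.5, 14.8 and 16.1 TPM and was chosen after its values were seen.

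**Figure D4:**
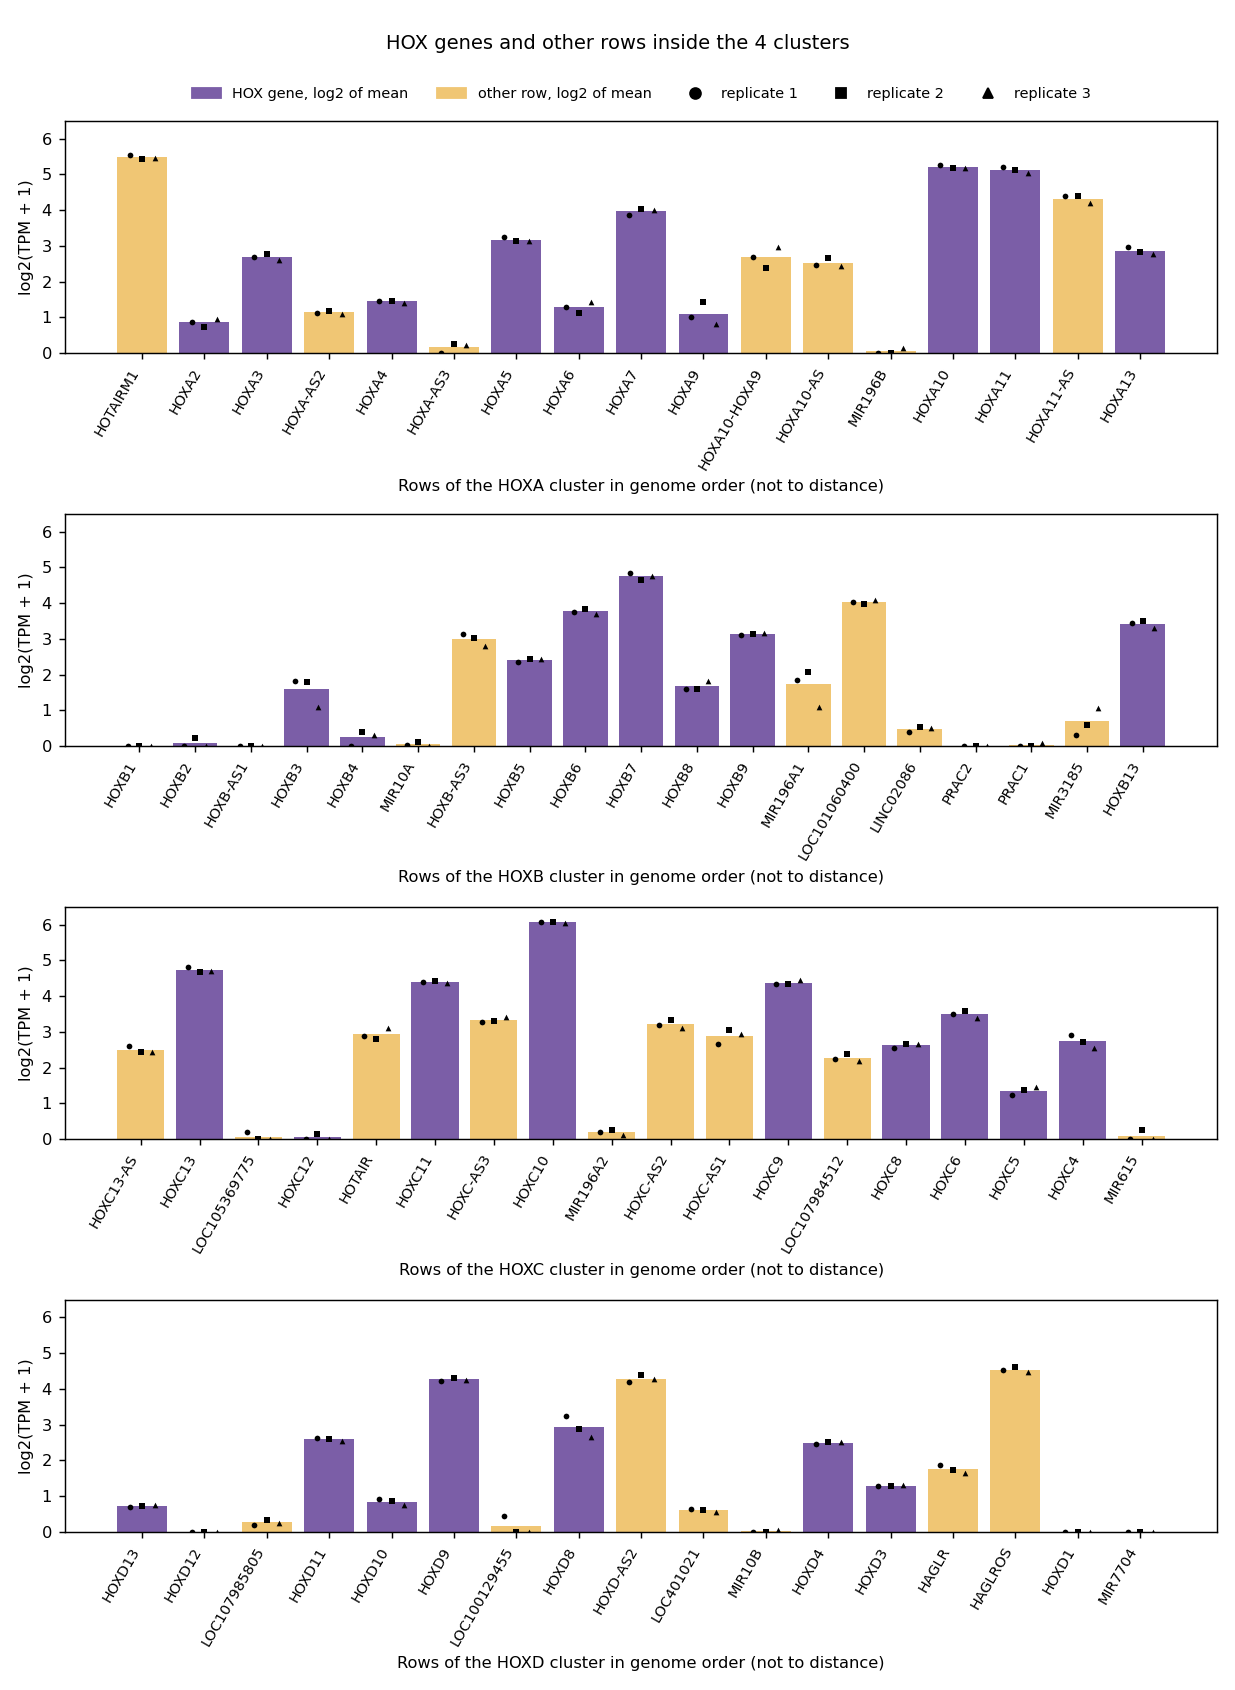
Level as log2(TPM + 1) (y axis) of 38 HOX genes and of all other rows inside the 4 clusters, ordered by start coordinate (x axis, not to distance), with bars for the mean TPM and a symbol for each replicate. HOTAIRM1, HOXD-AS2 and HAGLROS are as high as the abundant HOX genes, and HAGLROS stands beside HOXD1, listed at 0.

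Of the 39 HOX rows, 18 overlapped no other row, 13 overlapped a row on the same strand (9 of them another HOX gene) and 15 overlapped a row on the opposite strand. The strand setting of the counting is not given in the sources used here, so reads of overlapping rows could have been assigned to either. The 18 rows without overlap include HOXA11, HOXB7, HOXC9 and HOXD9, each an abundant gene of each cluster, which share no bases with another row. HOXC10 overlaps HOXC-AS3 on the opposite strand over 374 bp. HOXA10 lies entirely within the read-through row.

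The clusters also encode microRNAs, short RNAs that pair with target transcripts through their seed. The mature sequences of the miR-196 family and of miR-10a, as listed by RefSeq, are shown because HOX transcripts are their known targets. They are written 5′ to 3′ with the seed, bases 2 to 8, in capitals.
hsa-miR-196a-5p, from MIR196A1 beyond HOXB9 and MIR196A2 beyond HOXC10: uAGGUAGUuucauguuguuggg
hsa-miR-196b-5p, from MIR196B between HOXA9 and HOXA10: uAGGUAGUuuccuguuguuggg
hsa-miR-10a-5p, from MIR10A beside HOXB4: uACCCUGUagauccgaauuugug
Both miR-196 sequences share the seed. Their hairpin rows had low values in these polyA libraries, with 2.62, 3.20 and 1.14 TPM for MIR196A1 and at most 0.191 TPM for MIR196A2, MIR196B and MIR10A. Mature microRNAs were not measured.

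ACTACCT, the reverse complement of the miR-196 seed, was searched on the transcript strand in the 3′UTRs of GENCODE v44 canonical transcripts. It occurred in 8 of the 39 HOX genes, or 20.5%, against 7.01% of 19489 genes, and at 0.319 against 0.0436 sites per kb. The median 3′UTR was 905 bases long in HOX genes and 1067 in all genes. The 8 genes were HOXA5, HOXA7, HOXA9, HOXB1, HOXB6, HOXB7, HOXB13 and HOXC8. For each of 4 genes, a site among those with the most bases paired with miR-196a is given 5′ to 3′, with the seed match in capitals.
HOXA7, chr7:27154430-27154451, minus strand: cctactcccctaaaACTACCTa
HOXA9, chr7:27163254-27163275, minus strand: acaaaaggaaagaaACTACCTt
HOXB7, chr17:48607614-48607635, minus strand: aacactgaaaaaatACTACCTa
HOXC8, chr12:54012231-54012252, plus strand: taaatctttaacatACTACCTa
Genes with a match spanned the levels of the family, from HOXB7 at 25.9 ± 1.60 TPM and HOXA7 at 14.7 ± 0.959 TPM to HOXB1, listed at 0 in every library. ACAGGGT, the match of the miR-10a seed, occurred in 3 of the 39 HOX genes, HOXA3 and HOXB3 among them, or 7.69%, against 12.6% of all genes. A match is a description of the letters and not evidence of regulation in these cells.

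RefSeq promoter windows, from 250 bases before to 50 after a transcript start, were matched for 20 of the 39 HOX genes (27 windows). They held a median of 22 CG dinucleotides, from 0 to 44, against 14 over all 35116 windows, and 20 of the 27 exceeded that median. Most windows were of HOXA and HOXD genes. HOXB was represented only by HOXB1, with 11 CG, and HOXC only by HOXC4 and HOXC5, with 15 CG. Windows of HOXD1, listed at 0, and HOXA13 were among the richest, with 36 and 44. TATAAA on either strand occurred in 5 of the 27 windows, or 18.5%, against 11.5% of all windows. These 5 were windows of HOXD13, HOXA3 and HOXA9 and both windows of HOXA10. The 27 windows are not independent, since several belong to HOXA3, and HOXC4 and HOXC5 have the same window. In HOXD13, shown because the match lies 27 bases before the start, the surrounding 30 bases are as follows, with the match in capitals.
HOXD13, chr2:176092680-176092709, plus strand: ctgaacttcgttttTATAAAcgtcccgcga

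HOX proteins bind DNA together with TALE cofactors, homeodomain proteins of the PBX, MEIS and PKNOX families. Of 9 TALE genes, 8 reached 1 TPM in every library, against 59.5% of protein-coding gene rows. PBX2 was the highest with 19.2, 20.0 and 20.1 TPM, and MEIS3 had 14.7, 12.9 and 12.4 TPM. MEIS1, a partner of posterior HOX proteins in leukemia, had 3.34, 3.31 and 2.87 TPM. PKNOX2 was at or near 0. The 6 ParaHox genes, the sister group of the HOX genes that includes CDX2 and PDX1, were listed at 0 in every library. This held for 20.0% of protein-coding gene rows.

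Chromatin regulators of the HOX clusters were listed at 1 TPM or more. All 12 genes of a list of Trithorax and other activating regulators reached 1 TPM in every library. So did all 20 Polycomb genes, which keep silent HOX genes repressed, against 59.5% of protein-coding gene rows. KMT2A, a methyltransferase of histone H3 that maintains HOX transcription, had 18.6, 16.7 and 14.3 TPM. EZH2, the catalytic subunit of Polycomb complex PRC2, had 52.8, 49.7 and 52.6 TPM, and its partner SUZ12 had 37.6, 34.7 and 33.8 TPM. CBX7 was the lowest of the Polycomb list with 1.64, 1.96 and 1.82 TPM.

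Retinoic acid induces anterior HOX genes in the embryo. Of 12 genes for its receptors, synthesis and breakdown, 6 reached 1 TPM in every library, and each of these 6 exceeded 10 TPM. Of protein-coding gene rows, 59.5% reached 1 TPM and 40.4% reached 10 TPM in every library, so these counts do not set the list apart. The receptor RXRA had 69.3, 72.7 and 69.2 TPM and RARA had 14.1, 14.9 and 14.1 TPM, whereas RARB and RXRG stayed below 1 TPM. ALDH1A3, which makes retinoic acid, had 27.1, 27.0 and 27.8 TPM, and CYP26B1, which degrades it, had 28.8, 27.8 and 26.7 TPM.

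Of 8 genes that flank the clusters, 7 reached 1 TPM in every library, against 59.5% of protein-coding gene rows. HIBADH, on the HOXA flank, had 53.4, 52.0 and 50.6 TPM, and MTX2, on the HOXD flank, had 39.2, 36.8 and 35.3 TPM. SKAP1, on the HOXB1 side of HOXB, was listed at 0 in every library. TTLL6, on the HOXB13 side, had 1.48, 1.40 and 1.27 TPM, so that both flanks of HOXB were below HOXB7 and HOXB13.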

How the data were processed

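RNA-seq was performed by the authors on polyA RNA of 3 libraries labelled wild-type HepG2 (150 bp paired-end reads). The submitters' processing notes name FastQC 0.11.8, Trim Galore 0.6.2, STAR 2.6.1a, StringTie and GRCh38. The annotation and strand setting are not given in the sources used here. The authors deposited, for each gene and library, coverage (mean depth, not scaled for library size), FPKM (scaled for length and library size) and TPM (scaled to the same total). A per-gene count was not analysed here, so depth is unknown and precision is the SD over libraries.

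The 3 tables were matched on gene name, strand, start and end. Of 43389 matched rows, the 39320 on the main chromosomes and the mitochondrial genome were used, and 6 rows that were not the same in all libraries were left out. Members were chosen by name. The members and lists were chosen with earlier results of these data known. Every HOX gene was to be accounted for, with each library's value where the mean was at least 1 TPM. Lists held TALE, ParaHox, Trithorax, Polycomb, retinoic acid, flanking, noncoding and cell type marker genes.

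The 6 cluster pairs were compared with an exact permutation test that flips the signs of the log2 ratios (two-sided, pseudocount 1 TPM), adjusted by Benjamini-Hochberg. Other results are descriptions. The range calculation was tested on simulated data, with changes placed only in genes of at least 10 TPM. Its recovery of changes at lower levels was therefore not tested. Alternatives were other limits and pseudocounts, coverage or FPKM in place of TPM, other scalings, only genes with at least 1 TPM in every library, and leaving out each replicate. Sequences came from GENCODE v44 on GRCh38 and from RefSeq tables. HOXA5, HOXB2 to HOXB9, HOXB13, HOXC6, HOXC8 to HOXC13, HOXD9 and hsa-miR-10b-5p were among those not matched in the RefSeq tables. Some items are not reported here, and the figures of single genes leave out 1 HOX gene for that reason. Python 3.11.15, numpy 2.4.6, pandas 2.3.3, scipy 1.17.1, Biopython 1.88 and matplotlib 3.10.9 were used.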

Additional observations from a re-analysis of the deposited data

How the results depend on the processing

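All 6 log2 ratios between clusters kept their direction under every alternative run, and p was at its smallest possible value in each. Scaling without mitochondrially encoded genes raised the sums to 141 TPM for HOXA, 81.1 TPM for HOXB, 193 TPM for HOXC and 47.0 TPM for HOXD, and to 16.2, 131 and 314 TPM for anterior, central and posterior genes, since this scaling multiplies every gene by about 1.25. With coverage in place of TPM, the shares of the HOX total were 28.8% for HOXA, 17.6% for HOXB, 43.8% for HOXC and 9.82% for HOXD, and 2.17% for anterior and 69.3% for posterior genes. The cause was not tested. A limit of 10 TPM kept 10 genes. With a pseudocount of 0.1 TPM, 2 genes exceeded the range limit. With each replicate left out in turn, 3 to 5 genes were listed at 0, with 5 only without replicate 2. The other 120 values for counts, sums and ratios moved by less than the spread between replicates, or kept their direction, or, for counts, stayed within 1.5 times. The means of 31 of the 36 HOX genes above 0 rose by more than their SD under the scaling without mitochondrially encoded genes, and none moved by more than its SD under the other alternatives run on them. No paired analysis was possible because there is 1 condition, with no groups to pair by replicate number; the cluster ratios were taken within each library.

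Without counts, the number of reads behind a low value is not known, and genes below 1 TPM are reported by their values only. Coverage in replicates 1, 2 and 3 was 5.24, 4.11 and 5.25 for HOXA2 and 5.62, 4.95 and 3.76 for HOXD10. It was 1.29, 1.32 and 1.28 for HOXD13 and 0, 1.90 and 1.35 for HOXB4. HOXB2 and HOXC12 had coverage only in replicate 2, 0.969 and 0.632, and such values cannot be told from chance reads.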
